A study of Mus musculus with 4 samples.

Results

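Foxa1, Foxa2, Hhex, Onecut2, Onecut3 and Nkx6-3 are 6 transcription factor genes that were followed here through single cells of mouse intestinal organoids. They were chosen by name, as 6 of the 29161 genes in the deposited table, and all 6 had counts. The study profiled enteroids (organoids of the intestinal epithelium, cultured in a gel matrix) from female CD1 mice carrying 1 Neurog3eYFP reporter allele, and all groups shared this strain, sex, allele and culture medium. Living eYFP-positive cells were sorted at 1 cell per well into 4 plates of 92 cells each. Plate 1 held duodenum cells at 39 weeks of age, plates 2 and 3 held duodenum cells at 12 weeks, and plate 4 held jejunum cells at 12 weeks. The table kept 290 of the 368 sorted cells. The reporter follows the Neurog3 gene, which switches on the endocrine programme in gut progenitors, and eYFP protein can outlast the transcript, so the sort also collected descendants of those progenitors. Whether each plate came from 1 animal is not given in the sources used here, so the spread between plates may be partly technical.

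Enteroendocrine cells are rare hormone cells of the gut lining. Enterochromaffin cells make serotonin through the enzyme encoded by Tph1, and other endocrine cells make peptide hormones such as Cck, Gip, Gcg, Ghrl or Sst. Foxa1 and Foxa2 encode forkhead pioneer factors, which open closed chromatin in gut, liver and pancreas, and they are known to act on secretory and endocrine differentiation of the intestine. Onecut2 and Onecut3 belong to the cut-homeodomain family that is best known from liver, pancreas and neurons. Hhex is a homeobox gene known from early endoderm and from the somatostatin cells of the pancreas. Nkx6-3 is a homeobox gene known from the distal stomach and its gastrin cells.

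Cells were classed by 3 marker rules on CPM, the counts of a gene for each 1000000 counts of the cell or of the summed cells. Tph1-high cells had a Tph1 CPM of at least 200, single-hormone-high cells had exactly 1 of the 5 peptide hormone genes at a CPM of at least 1000, and Chgb-low cells had a CPM under 2000 for Chgb, which encodes a granule protein of most endocrine cells. Cells that met more than 1 rule were set apart. This left 94 Tph1-high cells (20, 25, 19 and 30 in plates 1 to 4), 13 single-hormone-high cells (0, 7, 4 and 2) and 122 Chgb-low cells (42, 29, 37 and 14). A further 20 cells met several rules, 16 others had several hormone genes high, and 25 met no rule. In all, 18 cells had 2 or more hormone genes high. Those of them that were also Chgb-low stayed in the Chgb-low class, since the hormone rule asks for exactly 1. The single-hormone-high cells were 8 Cck-high, 4 Gip-high and 1 Sst-high cell, with 0 Ghrl-high and 0 Gcg-high cells. All 10 cells with only Ghrl high met another rule as well and were set apart. The lowest Tph1 level inside the rule was 223 CPM and the highest outside it was 185 CPM, and for Chgb the values on either side of 2000 were 2198 and 1712 CPM.

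The control regions of both Foxa genes are shown because forkhead and cut-homeodomain motifs could be read in them, and because Foxa1 had the clearest difference between cell classes. RefSeq sequence upstream of the transcription start (build GRCm38.p6, minus strand, written 5′ to 3′ in the direction of transcription, without bases that GENCODE places in an exon) was searched on both strands for the forkhead core GTAAACA and the Onecut core ATTGAT, which do not overlap. Capitals mark the match. The start used for Foxa1 is the RefSeq one, which lies inside the span that GENCODE gives the gene (printed with its values), so the stretch is upstream of the RefSeq start but not of the longest GENCODE span. The Foxa1 stretch lies at chr12:57546122-57546361 and its match begins 141 bases before the start, and the Foxa2 stretch lies at chr2:148046970-148047219, upstream of the most distal of 3 listed starts, with its match 213 bases before it.
Foxa1: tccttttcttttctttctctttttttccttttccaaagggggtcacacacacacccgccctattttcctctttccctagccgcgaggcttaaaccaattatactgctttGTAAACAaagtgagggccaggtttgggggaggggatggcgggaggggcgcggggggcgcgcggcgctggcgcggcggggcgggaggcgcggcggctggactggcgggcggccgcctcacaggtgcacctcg
Foxa2: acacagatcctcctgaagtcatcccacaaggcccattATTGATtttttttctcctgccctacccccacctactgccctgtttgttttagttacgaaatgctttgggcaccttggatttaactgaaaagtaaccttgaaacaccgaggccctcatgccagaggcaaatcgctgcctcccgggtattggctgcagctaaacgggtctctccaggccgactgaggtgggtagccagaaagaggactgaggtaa

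Matches to these letters are not rare. GTAAACA or its reverse complement TGTTTAC occurred in 3.17% of 32851 upstream windows of the same length, and ATTGAT or ATCAAT in 6.72% of them. The Foxa1 window held no Onecut match, the distal Foxa2 window held no forkhead match, and the other 2 Foxa2 windows and the Hhex window held neither. A match describes letters and does not show a bound site, and none of these samples measured binding.

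Single cells held 202711 to 2312044 counts, and the median per plate was 321534, 432369, 429935 and 678124 for plates 1 to 4. The classes also differed in depth, at a median of 482197 counts in Tph1-high cells, 506468 in single-hormone-high cells and 379137 in Chgb-low cells. The 8 listed enterochromaffin markers and the 8 listed pan-endocrine markers had counts in every class, so presence alone does not set Tph1-high cells apart. The enterochromaffin markers summed to 9306 to 16874 CPM per plate in Tph1-high and 537 to 1190 CPM in Chgb-low cells. The pan-endocrine markers summed to 65054 to 104671 and 574 to 2252 CPM, with Chgb itself at 59783 to 93525 CPM in Tph1-high cells. Scg2 in plate 2 went the other way, at 10.3 and 24.0 CPM. Tph1 and Chgb, which define classes, are among these markers, so the differences are partly set by the rules. The Chgb-low class carried markers of other secretory cells. Its 8 goblet markers summed to 18276 to 26451 CPM per plate, against 512 to 1168 CPM in Tph1-high cells. Tff3 was the largest part of the Chgb-low sums, at 12043 to 17296 CPM. Not every goblet marker followed. Clca1 did not exceed 0.374 CPM in Chgb-low cells and was at 0 in Tph1-high cells. In plate 4, Zg16 was at 0.122 and 0.123 CPM and Spdef at 0 and 0.0822 CPM in Chgb-low and Tph1-high cells. The 6 Paneth markers summed to 3780 to 14438 CPM in Chgb-low cells, against 249 to 382 CPM in Tph1-high cells. Among them, Mmp7 in plate 1 was at 16.7 CPM in Chgb-low and 13.0 CPM in Tph1-high cells, and Itln1 in plate 4 at 0.980 and 1.44 CPM. The part of goblet and Paneth cells in the differences below was not tested.

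Foxa1 (ENSMUSG00000035451, chr12:57540628-57546916, build GRCm38, minus strand) was higher in Tph1-high cells than in Chgb-low cells in every plate, but the difference did not pass the test across all genes. Its level in the summed Tph1-high cells was 119, 43.1, 93.4 and 140 CPM in plates 1 to 4. In the summed Chgb-low cells it was 31.1, 8.93, 25.8 and 9.06 CPM in the same order. The lowest Tph1-high plate therefore lay above the highest Chgb-low plate, and the means were 99.0 ± 41.9 and 18.7 ± 11.4 CPM (SD, n = 4 plates). Of 17885 genes tested, 4.53% had Tph1-high sums above the Chgb-low sums without overlap. The log2 fold change in edgeR's quasi-likelihood test, with the plate as a block, was 2.09 ± 0.57 (SE), with an adjusted p of 0.182. In that comparison 357 genes passed, or 2%, and 0 of the 6 factors were among them, although all 6 had passed the filter on low counts. DESeq2 on the same sums gave Foxa1 a log2 fold change of 2.13 ± 0.54 and an adjusted p of 0.000984, in a fit that called 14.8% of genes.

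Cell by cell, Foxa1 was present in many but not all Tph1-high cells. At least 5 counts were found in 48 of 94 Tph1-high cells (51.1%, exact 95% interval 40.5 to 61.5%) and in 18 of 122 Chgb-low cells (14.8%, 8.98 to 22.3%). With every cell thinned to 100000 counts, at least 1 count was found in 52.1% and 17.2% of them. These intervals treat cells as independent and cover counting error only. Among positive Tph1-high cells the CPM ran from 7.99 to 914 with a median of 173. The strongest of them held 7.79% of the class's Foxa1 counts, so the level did not rest on 1 cell.

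Foxa1 in single-hormone-high cells rested on 1 cell in each plate. The sum was 0.312 CPM in plate 2, where 7 cells gave 1 count. It was 52.6 CPM over 4 cells of plate 3 and 138 CPM over 2 cells of plate 4, but all 95 counts of the first and all 192 of the second came from 1 cell, so these sums do not show a difference between plates. By hormone, and counting cells with several hormones for each, at least 5 counts were found in 6 of 16 Ghrl-high cells, 5 of 35 Cck-high cells, 2 of 11 Gcg-high cells, 1 of 11 Gip-high cells and 0 of 2 Sst-high cells. Ghrl marks ghrelin cells and had the highest share of these, on few cells, and the single-hormone-high class held 0 Ghrl-high cells.

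Foxa2 (ENSMUSG00000037025, chr2:148042877-148046969, minus strand), the close relative of Foxa1, showed no such separation. Its Tph1-high sums were 88.2, 94.8, 59.9 and 34.3 CPM in plates 1 to 4, and its Chgb-low sums were 51.0, 16.3, 55.8 and 34.7 CPM. The groups overlapped, with a clear gap in plate 2 and nearly equal levels in plates 3 and 4, where TMM scaling (edgeR's correction for library composition) turned the small plate 3 difference around. The means were 69.3 ± 27.8 and 39.4 ± 17.9 CPM (SD, n = 4 plates). edgeR gave a log2 fold change of 0.44 ± 0.61 (SE) with an adjusted p of 0.750, and -0.13 ± 0.50 (adjusted p = 0.941) without plate 2. At least 5 counts were found in 37 of 94 Tph1-high cells (39.4%, 29.4 to 50.0%) and 34 of 122 Chgb-low cells (27.9%, 20.1 to 36.7%).

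In the other classes Foxa2 was found at 5 or more counts in 10 of 20 cells that met several rules and in 2 of 13 single-hormone-high cells. It was seen at that depth in 5 of 16 Ghrl-high, 9 of 35 Cck-high, 2 of 11 Gip-high, 2 of 11 Gcg-high and 1 of 2 Sst-high cells. Across all cells of a plate its level was the steadiest of the 6 relative to its own mean, at 63.4, 48.0, 47.3 and 35.3 CPM, or 48.5 ± 11.5 CPM (SD, n = 4 plates).

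**Figure D1:**
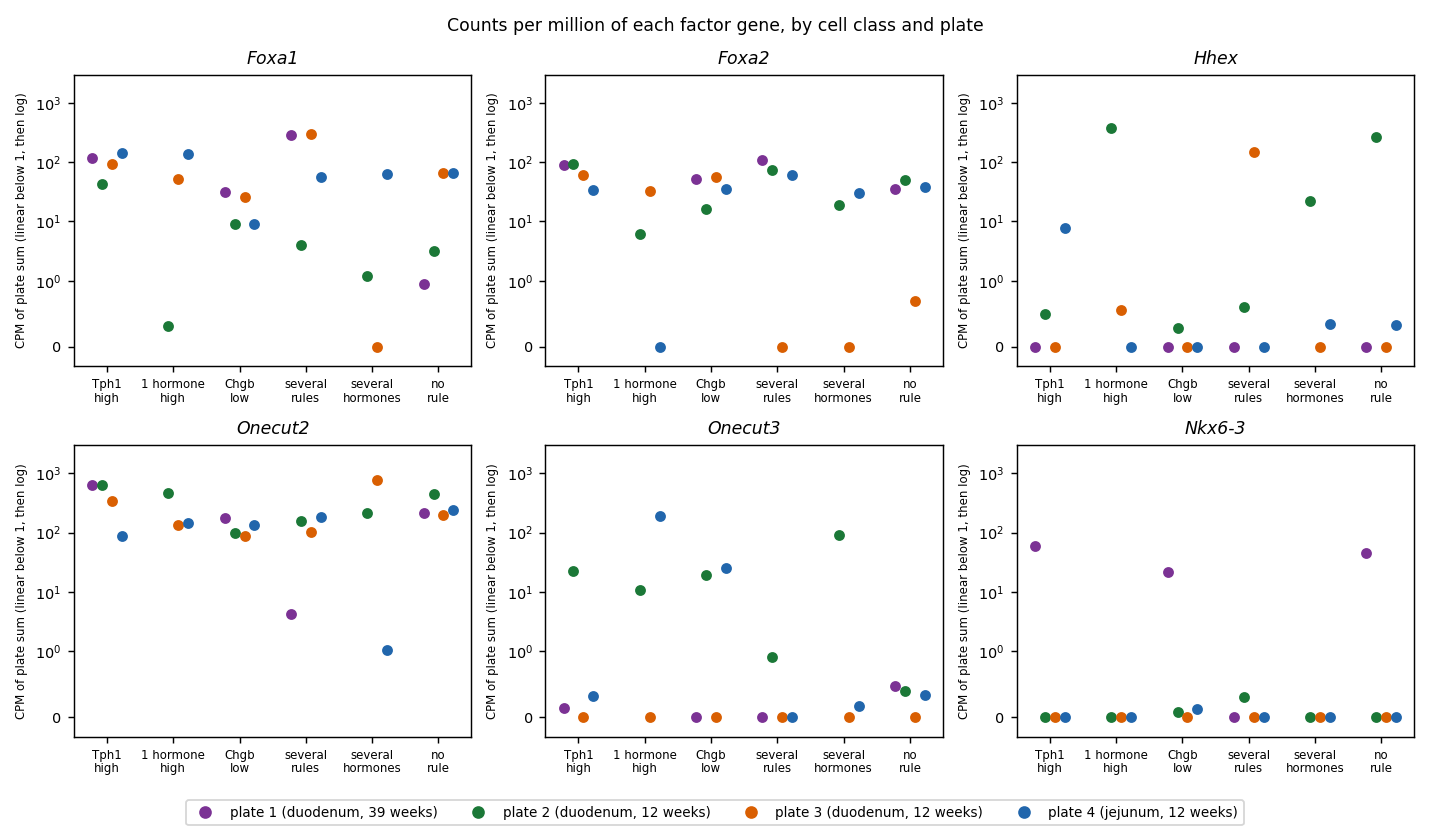
CPM of each factor gene in the summed cells of a class (x axis) and plate (colour); the y axis is linear below 1 and logarithmic above, and a missing point means that the plate had no such cell. Foxa1 in Tph1-high cells lies between 43.1 and 140 CPM, above all Chgb-low points, whereas the Hhex, Onecut3 and Nkx6-3 points above 1 CPM come from few plates.

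Onecut2 (ENSMUSG00000045991, chr18:64340020-64400987, plus strand), a cut-homeodomain factor, was found in more cells than any other of the 6, with at least 5 counts in 157 of 290 cells. In the duodenum plates 1, 2 and 3 its level was 625, 642 and 340 CPM in Tph1-high cells and 179, 99.0 and 89.2 CPM in Chgb-low cells. In the jejunum plate the order was the opposite, with 88.4 CPM in Tph1-high and 133 CPM in Chgb-low cells. The plate 4 value was the lowest Tph1-high level and lay just below the lowest Chgb-low level, 89.2 CPM in plate 3.

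With all 4 plates the edgeR log2 fold change for Onecut2, Tph1-high over Chgb-low, was 1.13 ± 0.56 (SE, adjusted p = 0.419). Without the jejunum plate it was 1.74 ± 0.30 (adjusted p = 0.0987). The difference of that contrast between jejunum and duodenum, fitted in edgeR as an interaction, was -2.66 ± 0.62 on the log2 scale, with an unadjusted p of 0.00671 and an adjusted p of 0.878. That test called 0 of 17732 genes, and it sets 1 jejunum plate against 3 duodenum plates. A tissue difference in this contrast therefore did not pass.

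Onecut2 was also common outside the Tph1-high class. At least 5 counts were found in 64 of 94 Tph1-high cells (68.1%, 57.7 to 77.3%), 9 of 13 single-hormone-high cells (69.2%, 38.6 to 90.9%), 16 of 25 cells that met no rule (64%, 42.5 to 82.0%) and 54 of 122 Chgb-low cells (44.3%, 35.3 to 53.5%). The Tph1-high share was 80%, 84% and 89.5% in the duodenum plates 1, 2 and 3 and 33.3%, or 10 of 30 cells, in the jejunum plate. The pooled share therefore stands for neither the duodenum plates nor the jejunum plate. With 1 jejunum plate, tissue and plate cannot be told apart. The single-hormone-high sums were 472, 134 and 148 CPM in plates 2, 3 and 4, which overlapped the Tph1-high range. By hormone, 15 of 35 Cck-high cells, 6 of 16 Ghrl-high cells, 5 of 11 Gip-high cells, 3 of 11 Gcg-high cells and 2 of 2 Sst-high cells had 5 or more counts.

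**Figure D2:**
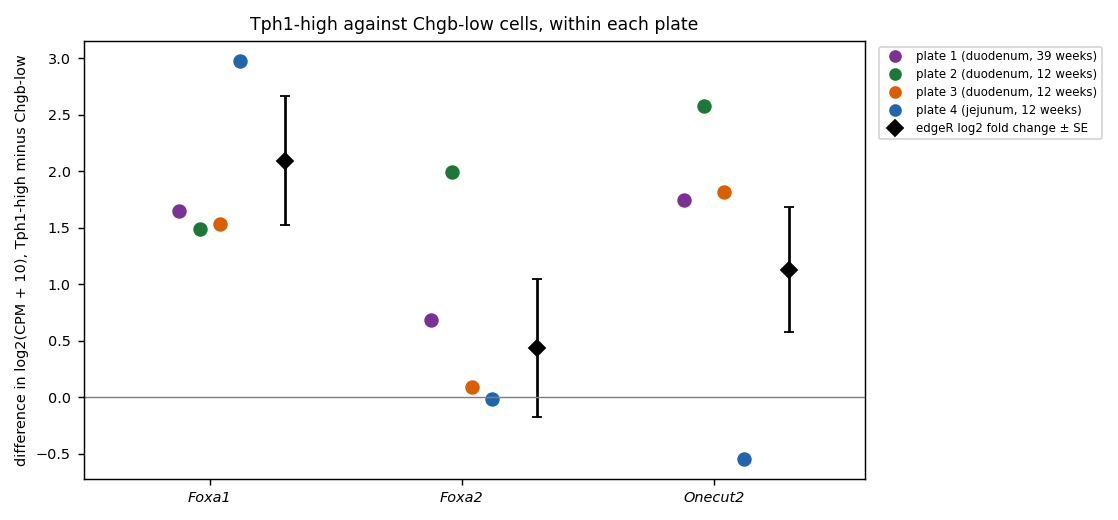
Difference in log2(CPM + 10) between the Tph1-high and Chgb-low sums of each plate (coloured circles) for the 3 widely detected factors, with the edgeR log2 fold change and its standard error (diamond). Foxa1 is above 0 in 4 of 4 plates, and the jejunum circle of Onecut2 lies at -0.54 while the duodenum circles lie between 1.75 and 2.58.

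Hhex (ENSMUSG00000024986, chr19:37434810-37440731, plus strand), the homeobox gene of pancreatic somatostatin cells, was confined to few cells, most of them with a peptide hormone. Only 8 of 290 cells held 5 or more counts, and these counts were not faint, running from 253 to 1935 CPM. Plate 2 held 6 of the 8 cells, and plates 3 and 4 held 1 each. In plate 2 the strongest cell, at 1935 CPM, met no rule and had a Chgb level of 17780 CPM. The other 5 were 2 Gip-high cells (984 and 337 CPM of Hhex), 1 Sst-high cell (683 CPM), 1 Cck-high cell (558 CPM) and 1 cell with both Gip and Sst high (253 CPM). The plate 3 cell was Cck-high and Chgb-low (434 CPM), and the plate 4 cell was Tph1-high (355 CPM).

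Both cells of the table with high Sst, at 160467 and 92358 CPM of that hormone, therefore carried Hhex. Of 11 Gip-high cells 3 did, of 35 Cck-high cells 2 did, and of 16 Ghrl-high and 11 Gcg-high cells 0 did. Taken over any of the 5 hormones, Hhex was present at 5 or more counts in 6 of 51 cells, against 2 of the other 239 cells. Within plate 2, 4 of 7 single-hormone-high cells and 1 of 7 cells with several hormones did, against 0 of 25 Tph1-high cells, 0 of 29 Chgb-low cells, 0 of 8 cells that met several rules and 1 of 7 that met no rule. These are counts within 1 plate, without a test. Plate 1 had 0 Hhex counts in 72 cells, which allows a share of up to 4.17%, and it also had no cell with high Gip, Gcg or Sst. The Chgb-low class had 5 or more Hhex counts in 0 of 122 cells, which allows up to 2.46%. The plate 3 cell with Hhex also had low Chgb, but it was set apart from that class because it was Cck-high.

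Among summed classes, Hhex was at 372 CPM in the 7 single-hormone-high cells of plate 2, at 0.553 CPM in the 4 of plate 3 and at 0 in the 2 of plate 4. In Tph1-high cells it was at 0, 0.493, 0 and 7.85 CPM in plates 1 to 4, and in Chgb-low cells it reached 0.290 CPM in plate 2 and was at 0 elsewhere. In plate 2 a further 16 cells held 1 to 4 Hhex counts, and whether these show the gene in those cells was not tested. Its edgeR adjusted p was 0.601 for Tph1-high against single-hormone-high cells, 0.282 for single-hormone-high against Chgb-low cells and 0.524 for Tph1-high against Chgb-low cells. In a limma fit on mean log values per class, in which each cell weighed alike, Hhex was higher in single-hormone-high cells than in Tph1-high cells (adjusted p = 0.00547, in a fit that called 2.62% of genes) and than in Chgb-low cells (adjusted p = 0.00517, 4.79% of genes). In all of these fits the single-hormone-high class was the plate 2 sum of 7 cells, assumed to vary like the other sums.

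**Figure D3:**
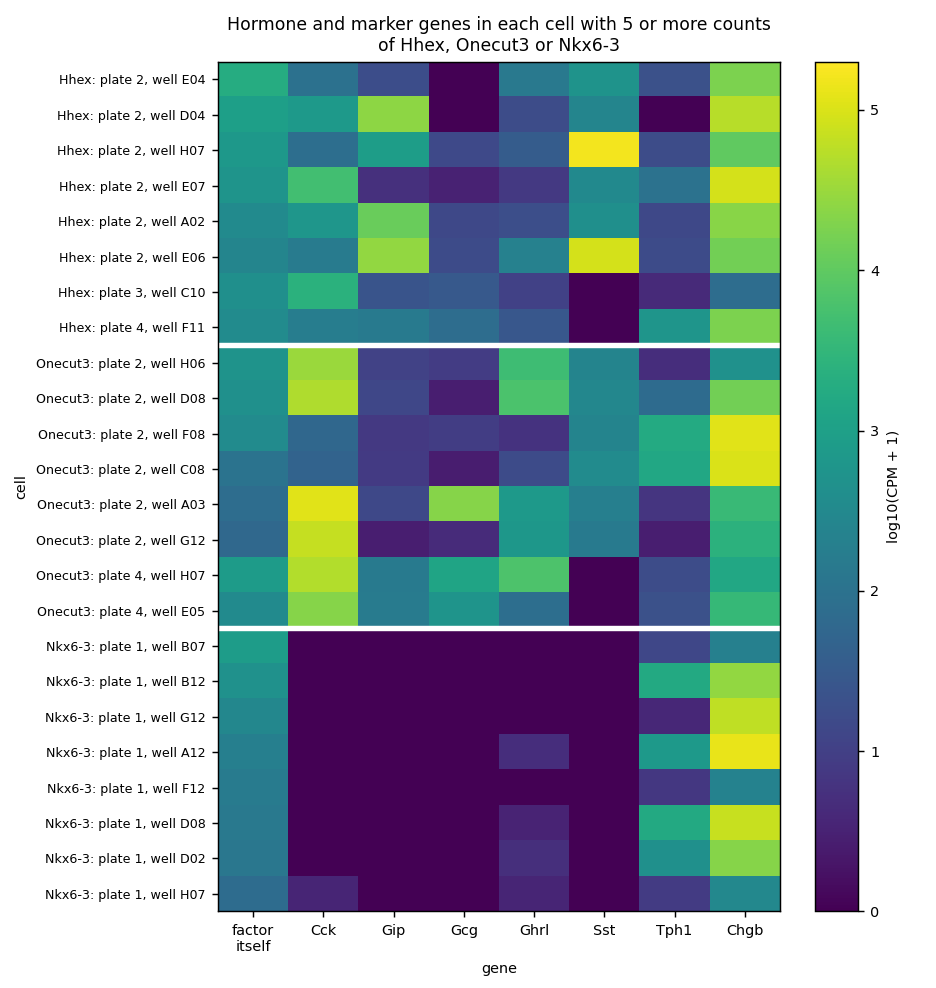
Heat map of log10(CPM + 1) for each cell (rows) that held 5 or more counts of Hhex, Onecut3 or Nkx6-3, showing the factor itself, 5 hormone genes, Tph1 and Chgb (columns). The Hhex rows carry Gip, Sst or Cck in 6 of 8 cells, 6 of 8 Onecut3 rows carry high Cck, and the Nkx6-3 rows all come from plate 1.

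Onecut3 (ENSMUSG00000045518, chr10:80494835-80517276, plus strand), a relative of Onecut2 known mainly from neurons and pancreas, also marked few cells, and most of them had high Cck, the cholecystokinin gene. It reached 5 counts in 8 of 290 cells, 6 in plate 2 and 2 in plate 4. Of these 8 cells 6 were Cck-high, with 21420 to 112797 CPM of Cck, and their Onecut3 levels were 79.0, 462, 61.2, 520, 341 and 805 CPM. Both remaining cells were Tph1-high, from plate 2, at 103 and 355 CPM of Onecut3, with 47.5 and 57.2 CPM of Cck.

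Of the 6 Cck-high cells, 3 also had high Ghrl and 2 also had high Gcg. In all, Onecut3 was carried by 6 of 35 Cck-high (17.1%), 3 of 16 Ghrl-high (18.8%) and 2 of 11 Gcg-high cells (18.2%). It was carried by 0 of 11 Gip-high and 0 of 2 Sst-high cells. These Ghrl-high and Gcg-high cells were all Cck-high as well, so the 3 shares are not separate comparisons. Among cells with only Ghrl high, Onecut3 reached 5 counts in 0 of 2, 0 of 4 and 0 of 4 cells of plates 1, 2 and 4. Among cells with only Cck high it did so in 0 of 1, 1 of 8, 0 of 6 and 1 of 3 cells of plates 1 to 4. No cell held 5 or more counts of both Hhex and Onecut3. Low counts were more widespread: 16 of 63 cells in plate 4 had at least 1 Onecut3 count, but 2 of them had 5. Whether such low counts show the gene in that cell was not tested. Plate 3 had 0 counts in 72 cells, which allows a share of up to 4.17%, although it held 6 cells whose only high hormone was Cck.

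The class sums of Onecut3 turned on single cells. Its Tph1-high sums were 0.134, 23.0, 0 and 0.329 CPM in plates 1 to 4, its Chgb-low sums were 0, 19.4, 0 and 25.3 CPM, and its single-hormone-high sums were 10.9, 0 and 192 CPM in plates 2, 3 and 4. In Chgb-low cells, 264 of 267 counts in plate 2 and 202 of 207 in plate 4 came from 1 cell each, and both cells had Cck and Ghrl high. With cells of any high hormone counted together, the hormone sums were 58.4, 0 and 45.5 CPM in plates 2, 3 and 4, and the Chgb-low sums did not exceed 0.632 CPM. In that grouping, chosen after the data had been seen, edgeR gave an adjusted p of 0.310 against Chgb-low cells, in a fit that called 1.53% of genes. Between Tph1-high and Chgb-low cells as classed above it was 0.863. The overlapping transcript 2610034O05Rik lies on the same strand without shared exons and had counts in the same plates, 306 in plate 2 and 778 in plate 4.

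Nkx6-3 (ENSMUSG00000063672, chr8:23153269-23158948, plus strand), the homeobox gene known from the distal stomach, was found almost wholly in plate 1, the duodenum plate of 39 weeks. Plate 1 held 824 of its 827 counts, or 99.6%. All 8 cells with 5 or more counts were in that plate, 8 of 72 (11.1%, exact interval 4.92 to 20.7%), at 75.4 to 859 CPM. Of these 4 were Tph1-high (478, 192, 139 and 128 CPM of Nkx6-3), 3 were Chgb-low (859, 156 and 75.4 CPM) and 1 met no rule (282 CPM, with 63183 CPM of Chgb).

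Within plate 1 these were 4 of 20 Tph1-high cells, 3 of 42 Chgb-low cells and 1 of 7 cells that met no rule. The sums were 59.1 CPM in Tph1-high cells, 21.5 CPM in Chgb-low cells, where 207 of 287 counts came from 1 cell, and 45.2 CPM in cells that met no rule. No test was run between classes within the plate. Plates 2, 3 and 4 held 2, 0 and 1 counts. The edgeR adjusted p for Tph1-high against Chgb-low cells was 0.756. Within plate 1, 4 of the 8 cells lay in well column 12, which gave 5 of the plate's 72 table cells. Whether the well column has a part in this was not tested. Of 3852 genes with a total within 2-fold of that of Nkx6-3, 0.701% were at least as confined to 1 plate, and for Hhex, with 85.6% of its counts in plate 2, the share was 0.552% of 4528 genes. Onecut3, with 64.6% of its counts in plate 2, was less unusual, since 8.06% of 4229 genes were at least as confined.

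**Figure D4:**
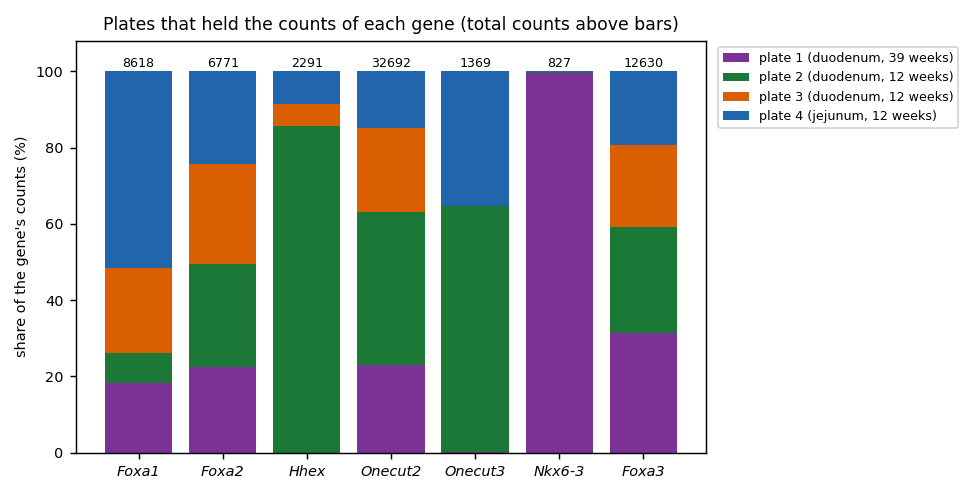
Share of each gene's counts (y axis, %) that fell in each plate (colour), with the total count above each bar, for the 6 factors and Foxa3. Nkx6-3 lies in plate 1 by 99.6%, Hhex in plate 2 by 85.6% and Onecut3 in plates 2 and 4, whereas Foxa2, Onecut2 and Foxa3 are spread over all 4 plates.

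Tests that involve single-hormone-high cells had little behind them. Only plate 2 had the 5 cells required for a sum, so its 7 cells (4 Cck-high, 2 Gip-high and 1 Sst-high) stood for the class. In Tph1-high against single-hormone-high cells edgeR called 0 of 17885 genes (0%), with 1659 at an unadjusted p under 0.05, and in single-hormone-high against Chgb-low cells it called 3 (0.0168%). None of the 6 factors passed in either. The edgeR adjusted p against Tph1-high cells was 0.287 for Foxa1, 0.476 for Foxa2 and 1 for Onecut2, Onecut3 and Nkx6-3. Over all genes tested, the log2 fold change had a median of 0.90 and -1.16 in these fits, so a difference near those values does not stand out from the rest of the table.

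DESeq2 called Foxa1 (adjusted p = 0.00171) and Foxa2 (adjusted p = 0.0342) higher in Tph1-high than in single-hormone-high cells, among 8.6% of genes, and Foxa1 lower in single-hormone-high than in Chgb-low cells (adjusted p = 0.0294), among 11.3% of genes. With cells that met several rules kept, which gave 15, 6 and 7 hormone cells in plates 2, 3 and 4, the hormone sums of Foxa1 were 2.16, 39.7 and 94.6 CPM. The edgeR log2 fold change, Tph1-high over hormone cells, was then 1.63 ± 0.95 (SE, adjusted p = 0.588), and that of hormone cells over Chgb-low cells was 0.46 ± 0.98 (adjusted p = 0.879). These fits called 0.142% and 0% of 14743 genes, none of them a factor of the 6, and the fit with any high hormone called 0.145% against Tph1-high cells, again none of the 6.

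**Figure D5:**
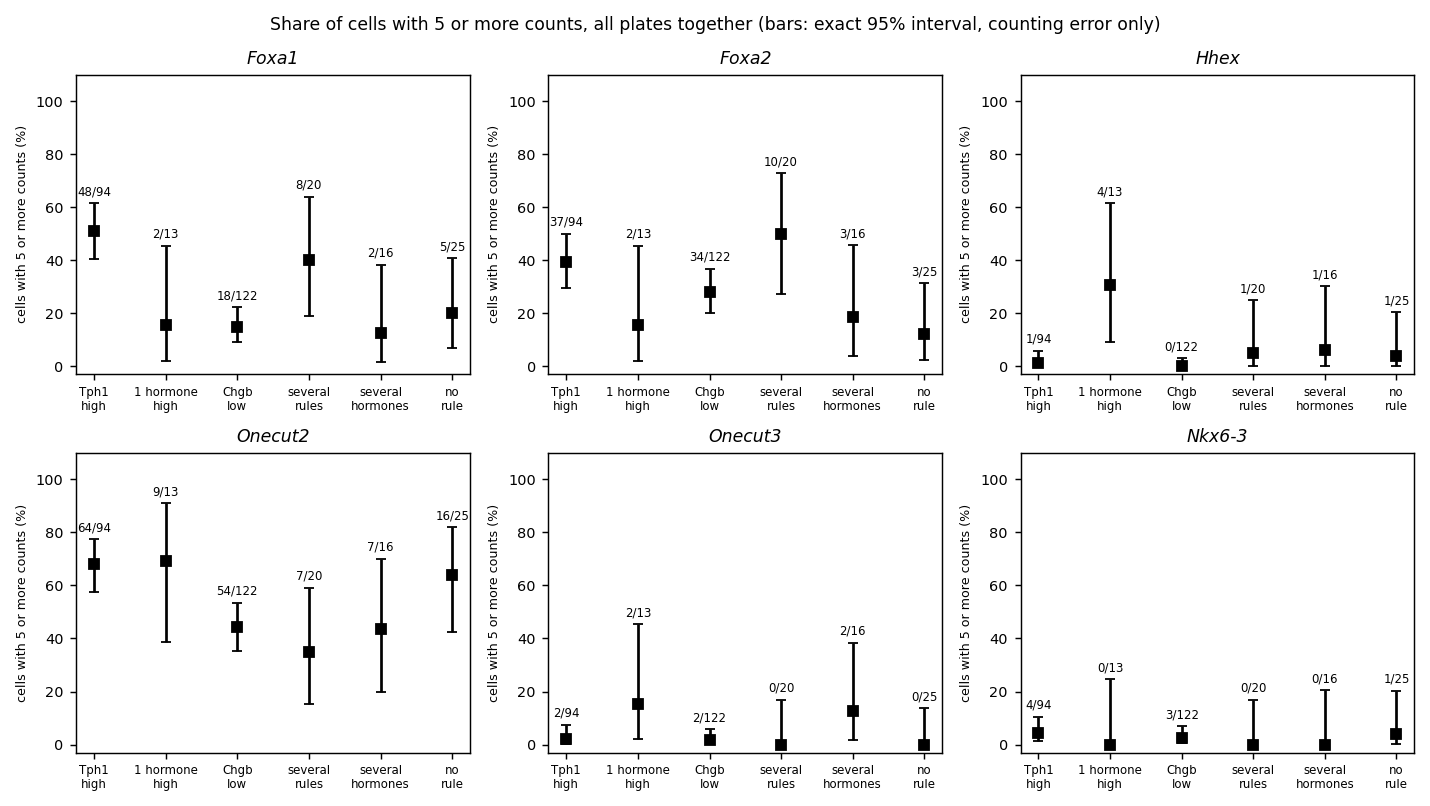
Share of cells with 5 or more counts of each factor (y axis, %) in each class over all plates, with the exact 95% interval and the number of cells above each bar. Foxa1 was found in 48 of 94 Tph1-high cells and 18 of 122 Chgb-low cells, and Hhex in 4 of 13 single-hormone-high cells and 0 of 122 Chgb-low cells.

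Between tissues, the sum of all cells gave the factors different levels in the jejunum plate, but none passed. Foxa1 was at 95.5 CPM in jejunum and at 65.9, 17.6 and 51.1 CPM in the duodenum plates, and Onecut2 was at 105 CPM in jejunum and at 315, 341 and 192 CPM in duodenum. A single plate often falls outside the range of a few others, and the share of all genes that do so was not counted. The jejunum level of Foxa2, 35.3 CPM, lay outside its duodenum levels of 63.4, 48.0 and 47.3 CPM. The same held for Foxa1 and Onecut2. Their edgeR log2 fold changes were 1.1 ± 0.71 (adjusted p = 0.934) and -1.42 ± 0.54 (adjusted p = 0.934), in a test that called 0 of 19329 genes (0%), with 819 at an unadjusted p under 0.05. In a fit on class sums with the class as a term they were 0.00 and -0.84 (SE 0.63 for Onecut2). The Foxa1 SE, an estimate near 0 divided by the root of F, came out at 4.53 and is not reliable. That fit treats sums of 1 plate as separate. The plates also differed in makeup, with 30 Tph1-high and 14 Chgb-low cells in jejunum against 19 to 25 and 29 to 42 in duodenum. In summed cells, more cells with a gene and more RNA of it per cell cannot be told apart, nor can tissue and plate with 1 jejunum plate.

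Between the duodenum plate of 39 weeks and those of 12 weeks, Nkx6-3 and Hhex were the factors that stood apart. Nkx6-3 was at 34.5 CPM at 39 weeks and at 0.0523 and 0 CPM at 12 weeks. Hhex was at 0 at 39 weeks and at 51.2 and 3.63 CPM at 12 weeks, and Onecut3 was at 0.0837 CPM against 23.1 and 0 CPM. In plate 3, 136 of the 137 Hhex counts came from 1 cell. The 39-week plate had no cell with high Gip, Gcg or Sst, and the part of this in the Hhex difference was not tested. For Hhex the edgeR log2 fold change was -12.8 ± 3.21 (SE), and -4.16 ± 2.48 on class sums with the class as a term. The edgeR adjusted p was 0.442 for Nkx6-3, 0.588 for Hhex and 0.661 for Onecut3, with 0 of 18480 genes called (0%) and 1412 at an unadjusted p under 0.05. DESeq2 called Nkx6-3 (adjusted p = 6.61e-08) and Hhex (adjusted p = 9.90e-05) among 4.98% of genes, and edgeR without a filter on low counts called both (adjusted p = 0.000346 and 0.00178) among 0.819% of genes. Foxa1, Foxa2 and Onecut2 had edgeR log2 fold changes of 0.75 ± 0.77, 0.26 ± 0.49 and 0.11 ± 0.50. With 1 plate of 39 weeks, age, animal and plate cannot be told apart.

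Joint presence was counted for the 3 widely detected factors, beside the number that the product of their shares gives. At least 5 counts of both Foxa1 and Foxa2 were found in 27 cells, which is 32.5% of Foxa1 cells and 30.3% of Foxa2 cells, where the product gives 25.5 cells. Foxa2 and Onecut2 met in 55 cells (product 48.2) and Foxa1 and Onecut2 in 42 (product 44.9). In Tph1-high cells Foxa1 and Onecut2 met in 25 cells, where the product gives 32.7. These products pool the plates, although in Tph1-high cells of plate 4 the Foxa1 share was highest (76.7%) and the Onecut2 share lowest (33.3%). The part of that pooling in the gap was not tested. Of the 94 Tph1-high cells, 6 held none of the 6 factors at 5 counts, 32 held 1, 44 held 2 and 12 held 3, whereas 44 of 122 Chgb-low cells held none. These are counts without a test.

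Close relatives of the 6 differed in how far they were present. Foxa3, the third Foxa gene, was found at 5 or more counts in 172 of 290 cells, with 117, 93.3, 59.8 and 59.5 CPM in Tph1-high cells and 180, 79.2, 51.4 and 56.1 CPM in Chgb-low cells of plates 1 to 4. Its groups overlapped, and its edgeR log2 fold change was -0.40 ± 0.34 (SE, adjusted p = 0.570), where that of Foxa1 was 2.09. Onecut1 had 2 counts in the whole table. Nkx6-1, a pancreatic beta-cell factor, had 259 counts, all in plate 1 and 250 of them in 1 cell. Nkx6-2 had 97 counts, 96 of them in 1 cell of plate 4, and it shares exon sequence with Inpp5a on the opposite strand, so its counts are uncertain.

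Other endocrine transcription factors did separate Tph1-high from Chgb-low cells. Of 30 listed genes 28 were tested, and edgeR called 3 higher and 2 lower, where 2% of all genes were called. The list was drawn up with earlier results of these data known, and Lmx1a and Fev are also listed as enterochromaffin markers, so their direction is no independent evidence. Lmx1a, which drives Tph1 expression in enterochromaffin cells, was at 594, 1101, 840 and 780 CPM in Tph1-high cells and at 2.62, 4.28, 5.23 and 13.6 CPM in Chgb-low cells (log2 fold change 6.87 ± 0.49, adjusted p = 0.00241). Fev, a serotonin-lineage factor, and Egr1, an immediate early gene, also rose, by 3.19 ± 0.22 (adjusted p = 0.00226) and 1.78 ± 0.21 (adjusted p = 0.0120). Isl1, a factor of peptide hormone cells, was lower, at a log2 fold change of -5.98 ± 0.51 (adjusted p = 0.00802). The median log2 fold change of the 28 was 0.71, against 0 for all genes tested and 0.78 for the 6 factors. Of 15 listed epithelial regulators, such as Cdx2 and Hnf4a, 0 were called, with a median of -0.12.

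The genes whose levels followed each factor most closely were named by Pearson's r of log2(CPM + 10) over 13 plate and class sums, among 6501 genes with a mean of at least 20 CPM. These sums share plates and cells, and the values are descriptions. For Foxa1 they were Degs1 (0.89), Gstt3 (0.89) and Gins4 (0.87), and for Foxa2 they were Phrf1 (0.88), Ywhaz (0.87) and Iws1 (0.86). For Onecut2 they were Golim4 (0.82), Zdhhc20 (0.81) and Rab14 (0.81). For Hhex they were Pcgf6 (0.90), Gmpr (0.89) and Upp1 (0.88), for Onecut3 Cnot10 (0.74), Nefm (0.74) and Ubxn6 (0.74), and for Nkx6-3 Prss22 (1.00), Pabpc4 (0.92) and Eno1b (0.91). The values for Hhex, Onecut3 and Nkx6-3 rest on the few sums in which the gene was well above 0.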

How the data were processed

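The deposited file is a matrix of raw counts, with genes as rows and wells as columns, that the authors made from plate libraries of polyadenylated RNA (BD Precise WTA kit, per the labels' protocols). The submitters' processing notes name the build mm10 and the tools bcl2fastq 2.17.1.14, cutadapt 1.10, Bowtie2 2.2.8, STAR 2.5.3a, UMI-tools 0.4.4 and HTSeq 0.6.1, with no role or order. How cells were filtered, and whether copies of a molecule were merged, is not given in the sources used here. A gene reached 643177 counts in 1 well, so counts may include PCR copies, and all intervals and limits cover counting error only. For a share of 0, the limit printed is that of 3 cells.

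The 29161 rows are Ensembl identifiers, of which 29120 were paired with a symbol. Gene positions are GENCODE M21 on GRCm38. The 290 columns were assigned to plates by matching the experiment number in the column name to the pool number in the sample title, which left 0 columns unassigned, and the labels of tissue and age hold only as far as that match does. Plates share a layout, so 88 of 92 well positions occur in 2 or more plates, and 0 cell columns were identical. No further cell filter was applied and no doublet caller was run, since wells received 1 sorted cell each. Strand of counting is not given in the sources used here. Upstream sequence was available for Foxa1, Foxa2 and Hhex. No upstream sequence was used for Onecut2, Onecut3 and Nkx6-3.

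Counts were summed per plate and class for sums of at least 5 cells, and tested in R 4.3.3 by quasi-likelihood (edgeR 4.0.16, with limma 3.58.1 for an alternative). Sums were scaled by TMM and filtered by filterByExpr. The plate entered as a block, since both classes come from the same plates, with Benjamini-Hochberg adjustment over all genes at a threshold of 0.05. Tissue and age were tested on sums of all cells of a plate. Alternatives were DESeq2 1.42.0, its size factors in edgeR, no filter, only the classes compared, cells meeting several rules kept, thresholds doubled for Tph1 (400) and hormones (2000) and halved for Chgb (1000), sums of at least 3 cells, limma on mean log values, no plate block, and leaving out each plate. Detection used at least 5 counts, with at least 1 count and thinning to 100000 counts as alternatives. Python 3.11.15 with pandas 2.3.3, numpy 2.4.6, scipy 1.17.1 and matplotlib 3.10.9 was used elsewhere. The edgeR test was tested on simulated data for Tph1-high against Chgb-low: of 100 genes changed 4-fold it recovered 23, and of 100 changed 16-fold it recovered 87, with 4 false calls among 16872 genes.

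The named genes were the 6 factors, 4 relatives (Foxa3, Onecut1, Nkx6-1 and Nkx6-2), the 3 genes most like each factor, and up to 5 called genes of a list of endocrine factors and a list of epithelial regulators, of which 1 called gene is not reported here. The 6 factors, the lists and the marker genes were chosen with earlier results of these data known. The grouping by any high hormone was added after the data had been seen.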

Additional observations from a re-analysis of the deposited data

Results flagged for a closer look

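Among 24 sets of 4 plate values (6 factors in Tph1-high cells, Chgb-low cells, cells that met no rule and all cells), 10 had a plate whose gap to the nearest other plate exceeded Dixon's 95% critical value as a share of the range. Chance gives about 1 in 20 for independent, normally distributed values, which these are not, since the sets share cells and hold many zeros, so the 10 are not read against that rate. Nkx6-3 was high in plate 1 in all 4 sets, at 59.1 CPM in Tph1-high cells, 21.5 CPM in Chgb-low cells, 45.2 CPM in cells that met no rule and 34.5 CPM in all cells. Hhex was high in plate 2 at 51.2 CPM in all cells, at 269 CPM in cells that met no rule, where 685 of 687 counts came from 1 cell, and at 0.290 CPM in Chgb-low cells, which is 4 counts. Hhex was also high in plate 4 at 7.85 CPM in Tph1-high cells, where 190 of 191 counts came from 1 cell. Onecut3 was high in plate 2 at 23.0 CPM in Tph1-high cells, where 217 and 61 of 280 counts came from 2 cells. Onecut2 was high in plate 2 at 448 CPM in cells that met no rule, a sum of 7 cells.

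The contrast of Tph1-high with Chgb-low cells went opposite ways in the jejunum plate and in all 3 duodenum plates for Onecut2, at -0.54 in jejunum on the scale of log2(CPM + 10), and for Foxa2, at -0.011 in jejunum. The edgeR interaction was -2.66 ± 0.62 (SE, adjusted p = 0.878) for Onecut2 and -1.07 ± 1.31 (adjusted p = 1) for Foxa2. For Foxa2 the plate 3 difference changes sign with TMM scaling, so the opposite order does not hold under that scaling.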

How the results depend on the processing

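None of the 6 factors passed in the 5 edgeR comparisons as designed, with the filter on low counts; without that filter Nkx6-3 and Hhex passed for 39 against 12 weeks. Among 287 repeats of these 30 results under alternatives, 246 kept direction and side of the threshold, 10 passed it (given in the report, from DESeq2, limma and edgeR without a filter) and 31 changed sign without passing. The cause was not tested.

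Counts of called genes moved more. Tph1-high against single-hormone-high cells gave 0, and 1539 with DESeq2, 8 without the filter, 21 with cells meeting several rules kept, 7 with the other thresholds, 7 with sums of at least 3 cells, 22 with any high hormone and 468 with limma. Tph1-high against Chgb-low cells gave 357, with 2650 in DESeq2 and 728 in limma, and 136 to 188 when a plate was left out. Single-hormone-high against Chgb-low cells gave 3, and in the same order 2021, 41, 0, 193, 139, 231 and 856, and 0 to 1 when plate 1, 3 or 4 was left out. Without the replicate block, that is, without pairing classes by plate, these 3 counts were 0, 303 and 78. Jejunum against duodenum gave 0, with 9 without the filter, 720 in DESeq2 and 0 to 10 when a duodenum plate was left out. The 39-week comparison gave 0, with 226 without the filter, 920 in DESeq2 and 3 on class sums, which treat sums of 1 plate as separate and so give p-values that are too small. The split of Tph1-high against Chgb-low calls was 124 higher and 233 lower in edgeR, 1451 and 1199 in DESeq2, and 469 and 259 in limma.

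The sign changes were all of log2 fold changes that did not pass. For Tph1-high over single-hormone-high cells, Onecut2 (0.12) gave -0.13 with DESeq2, -0.13 with its size factors in edgeR, -0.059 with the other thresholds, -0.79 with limma and -0.050 without the replicate block. Onecut3 (0.84) gave -0.62 with several rules kept, -2.62 with any high hormone, -0.14 with limma and -0.74 without the block, and Nkx6-3 (1.57) gave -1.09 with DESeq2, -1.29 with several rules kept and -0.67 with any high hormone. For Tph1-high over Chgb-low cells, Foxa2 (0.44) ran from -0.13 to 0.77 when a plate was left out, Onecut3 (-1.04) gave 0.28 with the other thresholds, 3.39 with any high hormone and -2.89 to 0.75 when a plate was left out, and Nkx6-3 (-1.09) gave 0.13 with limma, 1.13 without the block and 0.0085 without plate 4. For single-hormone-high over Chgb-low cells, Foxa1 (-5.21) gave 0.46 with several rules kept and 0.077 with limma, Onecut3 (-1.88) gave 0.42, 6.01 with any high hormone and 0.063, and Nkx6-3 (-2.66) gave 0.083 and 0.060, with 0.099 in DESeq2. For jejunum over duodenum, Hhex (-2.12) gave 3.84 on class sums and -2.70 to 1.1 when a duodenum plate was left out, and Onecut3 (0.45) gave -0.13 without plate 1, -0.14 without plate 3 and 7.97 without plate 2.

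Fits of the single-hormone-high class without plate 2, or on only the 2 classes compared, could not be made, nor could the age comparison without a duodenum plate, since no residual spread or no class was left. Detection moved with its definition: at least 1 count was found in 44.5% of cells for Foxa1, 44.5% for Foxa2, 76.6% for Onecut2, 10% for Hhex, 10.3% for Onecut3 and 4.48% for Nkx6-3, against 28.6%, 30.7%, 54.1%, 2.76%, 2.76% and 2.76% with at least 5 counts. Low counts can follow the plate. Sst, high in 2 cells of plate 2, summed to 332 CPM in that plate's Tph1-high cells and to 0 in those of the other plates. The cause was not tested. The simulated recovery of 23% of 4-fold changes limits what a missed threshold shows.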
